A study of Mus musculus with 6 samples.

Results

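The genes described here encode enzymes that activate fatty acids by joining them to coenzyme A. They are 10 genes chosen by symbol from the 57508 genes of the deposited tables, namely 5 of the ACSL family (Acsl1, Acsl3, Acsl4, Acsl5 and Acsl6), 3 of the SLC27 family of fatty acid transport proteins (Slc27a1, Slc27a3 and Slc27a4) and the mitochondrial genes Acsf2 and Acsf3. Each symbol matched 1 row in each table, and all 10 passed the filter on low counts. RNA was sequenced from KPC1199 cells, a mouse line labelled as pancreatic tumor cells, in 3 WT libraries whose names carry siACSL5_CY3 and 3 ACSL5 knockdown libraries whose names carry siACSL5_2260. For the latter, the genotype field reads knockdown and the title reads KO. The labels do not say what the endings of these names stand for, whether the WT cells received a control siRNA, or whether replicates were grown as separate cultures. The p-values therefore measure the spread between libraries, which may be technical. The comparison was made to study the role of ACSL5 in the progression of pancreatic ductal adenocarcinoma.

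A free long-chain fatty acid cannot enter most pathways until a synthetase has converted it, with ATP, into an acyl-CoA through an acyl-adenylate. The acyl-CoA can then be built into phospholipids, triacylglycerol or cholesterol esters, or be passed to carnitine and oxidised in mitochondria. The ACSL enzymes differ in the membrane they sit on and the acids they prefer, and the SLC27 proteins couple activation to uptake of the acid into the cell. The name "long-chain" covers the ACSL and SLC27 proteins, while ACSF2 acts on medium-chain acids and ACSF3 makes malonyl-CoA inside mitochondria.

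The 4 members with the highest mean level in WT cells were Acsl5, Acsl3, Acsl4 and Acsf2. The 250 bases before their RefSeq start sites (GRCm38.p6) are shown because the Acsl5 window differs from the next 3 in base composition. The Acsl5 window lies inside its annotated gene, which starts at base 55251938 in GENCODE M21. Those of Acsl3 and Acsl4 adjoin the start of the annotated gene, and that of Acsf2 spans it. What part this had in the difference was not tested. Capitals mark each GC box (GGGCGG or its reverse complement, overlaps counted) and each CCAAT box (CCAAT or its reverse complement). The windows are chr19:55253119-55253368 on the plus strand for Acsl5, chr1:78657575-78657824 on the plus strand for Acsl3, chrX:142390536-142390785 on the minus strand for Acsl4 and chr11:94601787-94602036 on the minus strand for Acsf2.
Acsl5: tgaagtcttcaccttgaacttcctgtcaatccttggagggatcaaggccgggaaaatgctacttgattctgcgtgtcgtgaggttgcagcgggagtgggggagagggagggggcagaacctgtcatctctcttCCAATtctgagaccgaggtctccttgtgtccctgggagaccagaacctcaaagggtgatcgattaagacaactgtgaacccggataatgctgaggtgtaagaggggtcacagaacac
Acsl3: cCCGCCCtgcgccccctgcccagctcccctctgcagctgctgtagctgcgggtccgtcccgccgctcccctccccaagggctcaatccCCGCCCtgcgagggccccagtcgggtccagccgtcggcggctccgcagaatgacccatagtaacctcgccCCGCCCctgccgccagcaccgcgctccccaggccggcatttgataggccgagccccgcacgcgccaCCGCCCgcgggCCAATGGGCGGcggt
Acsl4: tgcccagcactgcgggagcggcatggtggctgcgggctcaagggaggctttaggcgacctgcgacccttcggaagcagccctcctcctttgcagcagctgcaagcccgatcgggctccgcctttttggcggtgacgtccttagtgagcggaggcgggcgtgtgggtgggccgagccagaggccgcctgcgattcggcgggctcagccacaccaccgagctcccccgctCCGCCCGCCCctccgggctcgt
Acsf2: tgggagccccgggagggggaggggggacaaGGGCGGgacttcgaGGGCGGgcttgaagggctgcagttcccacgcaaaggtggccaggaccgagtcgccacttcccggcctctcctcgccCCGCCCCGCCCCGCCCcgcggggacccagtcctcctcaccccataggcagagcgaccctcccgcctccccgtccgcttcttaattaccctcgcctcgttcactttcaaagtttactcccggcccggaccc
The Acsl5 window holds 7 CpG dinucleotides and is 52.8% G or C, close to the medians of 6 and 52.4% over all 32851 windows of the same length. Acsl5 is not alone in this, since the windows of Slc27a4 and Acsf3 are 54.4% and 50.8% G or C. The windows of Acsl3, Acsl4 and Acsf2 hold 28, 25 and 22 CpG and are 75.6%, 70.8% and 70.0% G or C. At least 15 CpG were found in 27.3% of all windows. No GC box was found in the Acsl5 window, against 5 in Acsl3, 2 in Acsl4 and 5 in Acsf2, and 32.7% of all windows hold one. A CCAAT box, present in 33.9% of all windows, was found once in Acsl5 and once in Acsl3, where it adjoins a GC box. The E-box CACGTG (6.02% of all windows), the TATA box TATAAA (12.4%), the nuclear receptor half-site AGGTCA (14.0%), its direct repeat with 1 base between (0.033%) and the sterol element TCACCCCAC (0.496%) were searched on both strands and had no match in these 4 windows. These are matches of letters only, and no measurement of these promoters was made.

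Library totals lay between 21794244 and 29996194 expected counts. WT replicate 1 stood apart. Across genes, Pearson correlations of log2 CPM were 0.902 to 0.922 between this library and each of the others and 0.972 to 0.992 for the 10 pairs among those others, where the genes are not independent. The ribosomal protein share of its counts was 9.07%, against 3.29% to 3.90% elsewhere. The share of mitochondrial transcripts was 3.28% to 3.32% in WT and 2.42% to 2.53% in knockdown libraries. Of 8 epithelial markers, 7 had a mean above 1 TPM (the deposited level per transcript length and library size), with Cldn4 listed at 0 in every library, and their summed level was 8691 to 9356 TPM in WT and 8066 to 8854 TPM in knockdown libraries. Acinar markers summed to 9.49 to 16.1 TPM in WT and 14.7 to 17.7 TPM in knockdown libraries, with 2 of 5 above a mean of 1 TPM and Ctrb1 at 0. Fibroblast markers (2 of 6 above 1 TPM, Lum at 0) summed to 6.84 to 27.5 and 15.9 to 17.4 TPM, and leukocyte markers (1 of 6 above 1 TPM, with Adgre1, Cd3e and Tyrobp at 0) to 3.42 to 6.53 and 7.16 to 8.49 TPM. What part these differences had in the results was not tested. Endothelial markers summed to at most 0.12 TPM, with Cdh5 and Tek at 0. Markers of adipocytes and hepatocytes summed to at most 0.32 TPM, with Plin1 and Cfd at 0.

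Acsl5 was the most abundant member in WT cells and the gene with the smallest p of all those tested. It encodes a synthetase of the endoplasmic reticulum and outer mitochondrial membrane that is abundant in intestine. Its level was 72.2, 97.8 and 101.3 TPM in WT replicates 1, 2 and 3, and 17.6, 21.1 and 20.96 TPM in knockdown replicates 1, 2 and 3. The groups did not overlap, and the highest knockdown library was far below the lowest WT library. The mean went from 90.4 ± 15.9 TPM (SD, n = 3) to 19.9 ± 1.95 TPM (SD, n = 3), which is 22.0% of the WT mean, or 19.98% when WT replicate 1 is left out. The two-sided exact permutation test on log2 levels gave p = 0.1, and a design of 3 against 3 can give no smaller p. In RNA from whole cultures, fewer cells holding a transcript and less transcript per cell cannot be told apart.

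In the edgeR fit of the expected counts of all 6 libraries, the log2 fold change of Acsl5 (knockdown minus WT) was -2.43 (SE 0.167, adjusted p = 0.0619), the smallest p of 14679 genes. In this fit 0 of the 10 members and 0.0% of all genes were called at an adjusted p below 0.05. Unadjusted, 1 member (Acsl5) had p below 0.05, as did 16.0% of all genes. DESeq2 called Acsl5 alone of the members (adjusted p = 1.85e-38) and 7.68% of all genes, and limma-voom called Acsl5 and 0.0545% of all genes. In limma-trend on log2(TPM + 1), 0 of all genes were called, so no member was. With the trend of each library with gene length removed, edgeR called Acsl5 and 5.99% of all genes. In the fit without WT replicate 1, Acsl5 fell by 2.32 on the log2 scale (SE 0.0638, adjusted p = 5.95e-08), again with the smallest p.

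The Acsl5 gene (ENSMUSG00000024981) spans bases 55251938 to 55297720 of chromosome 19 (GRCm38, plus strand). Its transcript of 4243 bases, whose length equals the deposited gene length, has 22 exons and codes for 683 amino acids. Of its 4864 annotated exon bases, 404 are shared with Zdhhc6, a palmitoyltransferase gene on the other strand, and whether the counts used strand is not given in the sources used here. Zdhhc6 was at 40.5, 57.9 and 58.2 TPM in WT replicates 1, 2 and 3, and its knockdown values were 56.2, 56.8 and 56.95 TPM. It was not called, with a log2 fold change of -0.17 (adjusted p = 0.596) over 6 libraries and -0.04 (adjusted p = 0.536) without WT replicate 1.

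**Figure D1:**
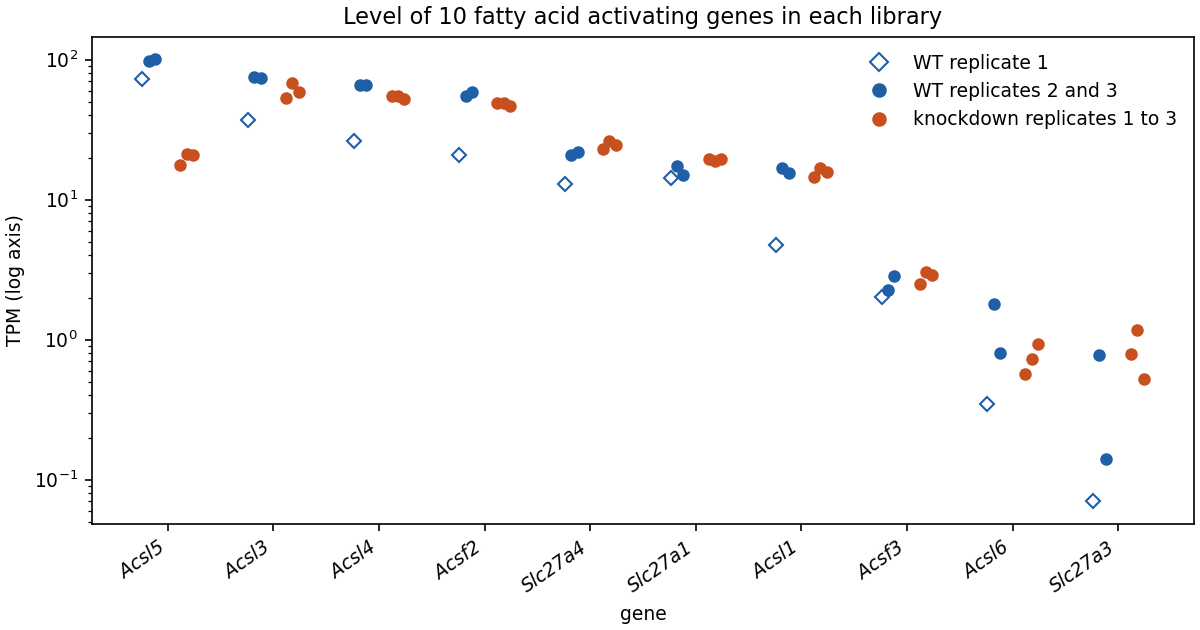
TPM on a log axis for the 10 genes, ordered by mean WT level, in each library (blue, WT, with replicate 1 as open diamonds; orange, knockdown). Acsl5 has its 3 knockdown libraries between 17.6 and 21.1 TPM, below every WT library, and WT replicate 1 is the lowest WT library for all 10 genes.

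Acsl5 had the highest mean level of the family in WT cells and place 5 in knockdown cells. In TPM, which allows for gene length, the WT order was Acsl5, Acsl3, Acsl4, Acsf2, Slc27a4, Slc27a1, Acsl1, Acsf3, Acsl6 and Slc27a3, with means of 90.4, 62.1, 52.6, 44.9, 18.5, 15.6, 12.4, 2.38, 0.983 and 0.33 TPM. The first 4 kept this order inside each of the 3 WT libraries, although their ranges overlapped across libraries through the low values of WT replicate 1. Once that library was left out, every pair of neighbours in the WT order was separated except Slc27a1 (14.9 and 17.5 TPM) and Acsl1 (15.6 and 16.8 TPM). In knockdown cells the order was Acsl3, Acsl4, Acsf2, Slc27a4, Acsl5, Slc27a1, Acsl1, Acsf3, Slc27a3 and Acsl6. There the ranges of Acsl3 (53.6 to 68.4 TPM) and Acsl4 (52.7 to 55.3 TPM) overlapped, as did those of Acsl5 and Slc27a1 and those of Slc27a3 and Acsl6.

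As a share of the summed TPM of the 10 genes, Acsl5 took 37.9%, 27.7% and 28.4% in WT replicates 1, 2 and 3, while its knockdown shares were 7.47%, 8.11% and 8.63%, and the groups did not overlap. The mean share went from 31.3% ± 5.67 (SD, n = 3) to 8.07% ± 0.583 (SD, n = 3), a difference of -23.2 percentage points (two-sided exact permutation p = 0.1, adjusted p = 0.143 over the 10 shares). Shares within a library sum to a constant, so a lower share of Acsl5 goes with higher shares elsewhere. The shares of Acsf2 (14.3% to 19.5%), Acsl4 (16.9% to 22.1%), Acsl3 (20.5% to 24.4%), Slc27a4 (6.26% to 9.99%), Acsl1 (3.87% to 6.37%) and Acsf3 (0.832% to 1.14%) were higher in every knockdown library than in any WT library, each with exact p = 0.1. The shares of Slc27a1, Acsl6 and Slc27a3 overlapped between the groups. With shares taken among the 9 members without Acsl5, those of Acsf2, Acsl4, Slc27a4 and Acsf3 overlapped as well. There only Acsl1 was higher in every knockdown library (mean 5.56% to 6.93%), and Acsl3 was lower in every one (29.9% to 26.5%). Each had exact permutation p = 0.1 and adjusted p = 0.45 over 9 shares. The ratio of Acsl5 over Acsl3 within a library was 1.95, 1.31 and 1.36 in WT replicates 1, 2 and 3, against 0.329, 0.308 and 0.359 after knockdown. The mean of Acsl3 itself did not rise (62.1 TPM in WT and 60.1 TPM in knockdown libraries), so this ratio fell with Acsl5.

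**Figure D2:**
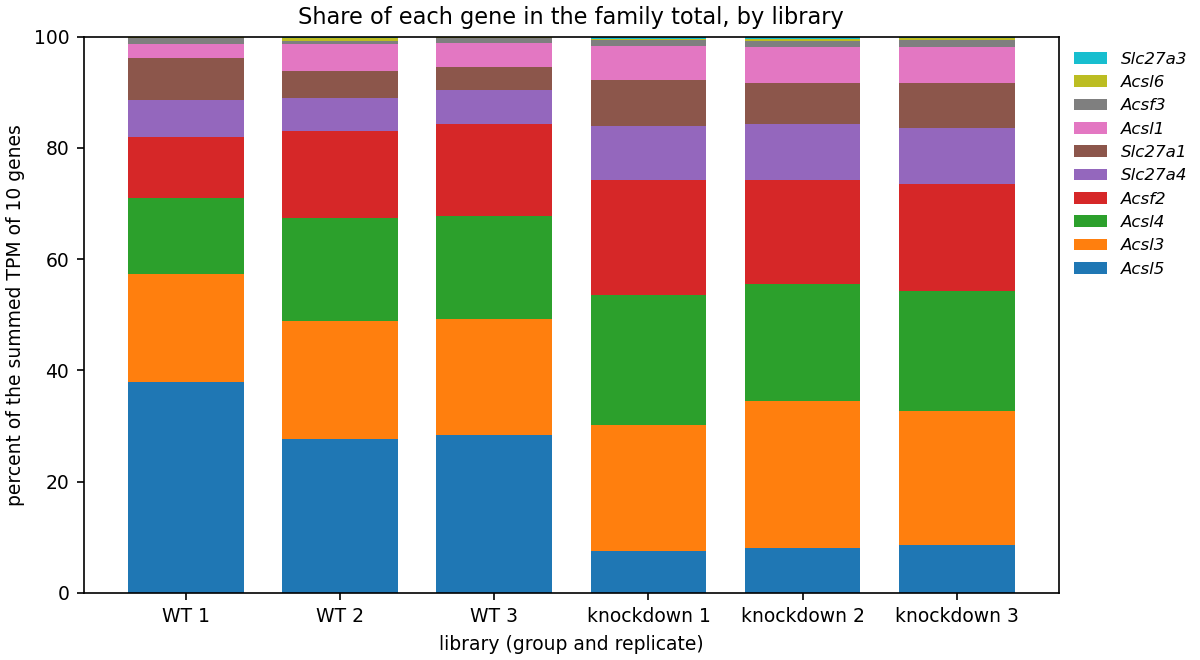
Stacked bars give the percent of the summed TPM of the 10 genes that each gene took in each of the 6 libraries. The Acsl5 segment is between 27.7% and 37.9% in the WT libraries and between 7.47% and 8.63% in the knockdown libraries, and Acsl3 and Acsl4 are the 2 largest segments after knockdown.

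The summed level of the 10 genes was 190.7, 353.0 and 356.7 TPM in WT replicates 1, 2 and 3 and 236.2, 259.8 and 242.8 TPM in knockdown replicates 1, 2 and 3. The groups overlapped through WT replicate 1 alone (difference -53.9 TPM, exact permutation p = 0.4), and without it the difference was -108.6 TPM. With Acsl5 left aside, the other 9 genes summed to 118.5, 255.2 and 255.4 TPM in WT and 218.5, 238.7 and 221.8 TPM in knockdown replicates 1, 2 and 3. The groups overlapped here too, with a difference of 16.7 TPM (exact permutation p = 1.0) over 6 libraries and -28.9 TPM without WT replicate 1. Against WT replicates 2 and 3, the other 9 genes thus had a lower sum in every knockdown library, and against all 3 the sign depended on WT replicate 1. The 3 SLC27 genes summed to 27.3, 39.0 and 36.97 TPM in WT and 43.3, 46.2 and 44.7 TPM in knockdown replicates 1, 2 and 3, without overlap (exact permutation p = 0.1). Among single genes averaging at least 1 TPM in a group, 25.9% had such a gap upward in TPM and 5.97% a gap downward.

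WT replicate 1 was below the mean of WT replicates 2 and 3 in TPM for all 10 genes, with ratios from 0.152 (Slc27a3) to 0.883 (Slc27a1). On the scale of CPM (counts relative to the library total, scaled by TMM) it was above that mean for 4 of them, with ratios of 1.28 for Acsl5, 1.48 for Slc27a1, 1.46 for Acsf3 and 1.13 for Slc27a4. Acsl5 thus had its lowest WT value in this library in TPM and its highest in CPM (342.4, against 265.2 and 270.2 in replicates 2 and 3). The results for the other members are therefore given with and without this library.

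Acsl3, Acsl4 and Acsf2 stood at 80.6%, 82.5% and 84.5% of the mean TPM of WT replicates 2 and 3 in the knockdown libraries. In the fit without WT replicate 1, 4 of 10 members fell (these and Acsl5) and 0 rose, where 18.0% of the 15152 genes tested fell and 16.3% rose. A total of 34.3% of all genes were called, so the share of members called in either direction is near that of the table as a whole. DESeq2 without this library called the same number of members (4) and 32.3% of all genes. The edgeR median log2 fold change was -0.19 over the 10 members and -0.08 over the 9 without Acsl5, against -0.01 over all genes. Over 6 libraries the medians were -0.13, -0.10 and -0.02.

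Acsl3 (chromosome 1, 78657825 to 78707743, plus strand) encodes a synthetase of the endoplasmic reticulum and of growing lipid droplets. Its level was 37.1, 74.8 and 74.4 TPM in WT replicates 1, 2 and 3 and 53.6, 68.4 and 58.4 TPM in knockdown replicates 1, 2 and 3, so that the groups overlapped through WT replicate 1. In CPM the values were 112.2, 120.2 and 124.1 in WT and 104.2, 97.7 and 96.6 in knockdown libraries, and all knockdown libraries were lower, as for 15.6% of all genes tested. The log2 fold change was -0.26 (SE 0.122, adjusted p = 0.361) over 6 libraries and -0.31 (SE 0.0501, adjusted p = 9.2e-04) without WT replicate 1. It shares 244 of 4357 exon bases with Utp14b, which lies on the same strand, and which rose by 0.42 without WT replicate 1 (adjusted p = 2.81e-04). Among the 9 members without Acsl5, the share of Acsl3 was 31.3%, 29.3% and 29.1% in WT and 24.5%, 28.7% and 26.3% in knockdown replicates 1, 2 and 3, lower in every knockdown library (exact permutation p = 0.1, adjusted p = 0.45 over 9 shares).

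Acsl4 (chromosome X, 142317993 to 142390535, minus strand) encodes the synthetase that prefers arachidonic acid and is known for supplying the polyunsaturated phospholipids oxidised in ferroptosis. It was at 26.0, 65.4 and 66.3 TPM in WT replicates 1, 2 and 3 and at 55.3, 54.9 and 52.7 TPM in knockdown replicates 1, 2 and 3. The knockdown libraries lay between WT replicate 1 and the other WT libraries. The log2 fold change was -0.15 (SE 0.168, adjusted p = 0.659) over 6 libraries and -0.30 (SE 0.0464, adjusted p = 7.21e-04) without WT replicate 1.

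Acsf2 (chromosome 11, 94557102 to 94601871, minus strand) encodes a mitochondrial synthetase of medium-chain acids. Its level was 20.98, 55.1 and 58.5 TPM in WT replicates 1, 2 and 3 and 48.8, 48.7 and 46.5 TPM in knockdown replicates 1, 2 and 3, the same arrangement as Acsl4. The log2 fold change was -0.15 (SE 0.176, adjusted p = 0.672) over 6 libraries and -0.32 (SE 0.0483, adjusted p = 6.66e-04) without WT replicate 1. It was the one of these 3 genes whose estimate became more negative, at -0.39 (SE 0.0505, adjusted p = 2.97e-04), when each library's trend with GC content was removed. In that fit Acsl3 was at -0.19 and Acsl4 at -0.15, both called, while 31.6% of all genes were called, with 16.0% lower and 15.6% higher. With deposited TPM values and without WT replicate 1, limma-trend called Acsl4 (-0.27, adjusted p = 0.0261) and Acsf2 (-0.24, adjusted p = 0.0456) and not Acsl3 (-0.31, adjusted p = 0.108), where 17.8% of all genes were called, 7.26% lower and 10.5% higher. With Acsl5 this made 3 of the 9 members tested.

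**Figure D3:**
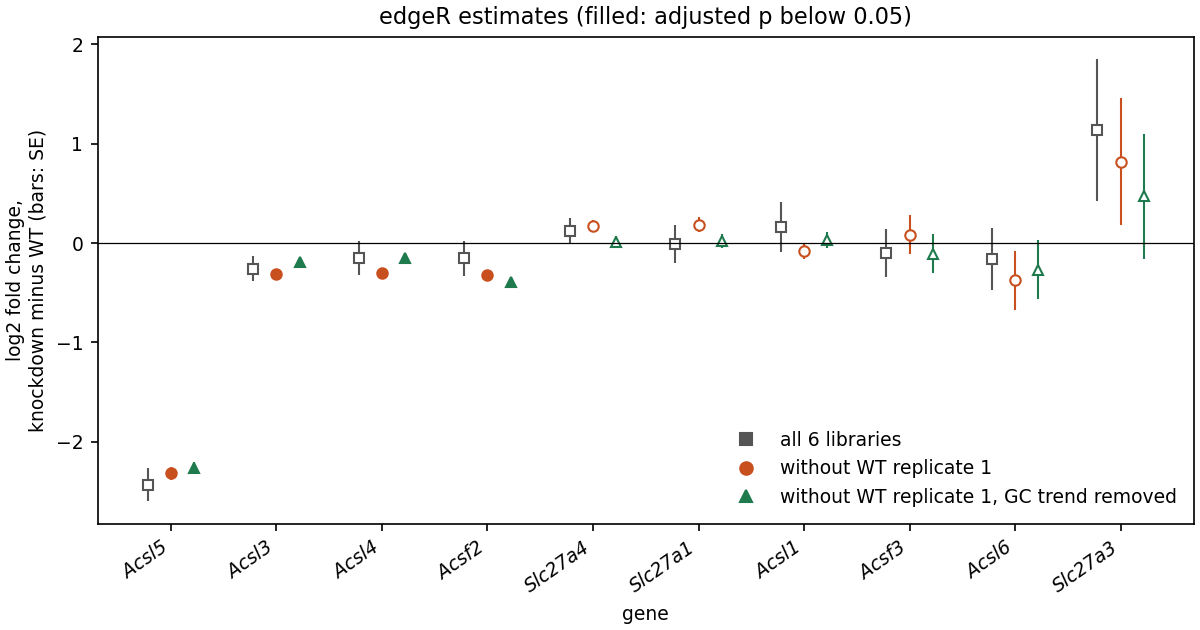
Points are edgeR log2 fold changes (knockdown minus WT) of the 10 genes with SE bars, for all 6 libraries (grey squares), without WT replicate 1 (orange circles) and without it after removal of the GC trend (green triangles); filled points have an adjusted p below 0.05. Acsl5 lies between -2.43 and -2.26 in the 3 fits, and Acsl3, Acsl4 and Acsf2 are filled only in the 2 fits without WT replicate 1.

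The 2 SLC27 genes with appreciable levels had higher TPM in every knockdown library, and whether they passed the test depended on the settings. Slc27a4 (chromosome 2, 29802634 to 29817522, plus strand) encodes FATP4, an uptake protein of intestine and skin. It was at 12.9, 20.7 and 21.9 TPM in WT replicates 1, 2 and 3 and at 23.1, 26.1 and 24.6 TPM in knockdown replicates 1, 2 and 3, and the groups did not overlap. Slc27a1 (chromosome 8, 71568882 to 71587302, plus strand) encodes FATP1, an insulin-responsive transporter of muscle and fat. It was at 14.3, 17.5 and 14.9 TPM in WT replicates and at 19.4, 18.9 and 19.6 TPM in knockdown replicates 1, 2 and 3, again without overlap. Such a gap upward was found for 25.9% of the 13883 genes at 1 TPM or more in a group's mean, and a gap downward for 5.97%. In CPM both genes overlapped between the groups, where 18.7% of all genes had a gap upward. The log2 fold changes were 0.12 (SE 0.126, adjusted p = 0.626) for Slc27a4 and -0.01 (SE 0.191, adjusted p = 0.979) for Slc27a1 over 6 libraries. Leaving out WT replicate 1 gave 0.17 (SE 0.0611, adjusted p = 0.0534) for Slc27a4 and 0.18 (SE 0.0751, adjusted p = 0.0818) for Slc27a1. Removal of the GC trend as well gave 0.01 and 0.02. Slc27a4 was called higher without that library with library totals (0.20, adjusted p = 0.0254), with the length trend removed (0.20, adjusted p = 0.025), with a replicate block (0.20, adjusted p = 0.023) and with knockdown replicate 1 also left out (0.21, adjusted p = 0.00576). Slc27a1 was called with library totals alone of these (0.22, adjusted p = 0.0429).

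Slc27a3 (chromosome 3, 90385239 to 90389938, minus strand) encodes FATP3, which activates fatty acids and contributes little to uptake. Its expected counts were 3.98, 25.3 and 6.74 in WT replicates 1, 2 and 3, against 26.9, 42.8 and 19.4 after knockdown. The groups overlapped, and the log2 fold change of 1.14 (SE 0.716, adjusted p = 0.454) was 0.82 (SE 0.639, adjusted p = 0.370) without WT replicate 1, and neither passed the test. The positive value rested on the low counts of WT replicates 1 and 3, while WT replicate 2, the highest WT library, lowered it. The log2 fold change was 2.33 (adjusted p = 0.28) without WT replicate 2. It was 2.29 without WT replicates 1 and 2, and 0.02 without WT replicates 1 and 3.

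The remaining 3 genes did not pass the test in either fit. Acsl1 (chromosome 8, 46471037 to 46536051, plus strand), the main synthetase of fat, liver and heart, was at 4.75, 16.8 and 15.6 TPM in WT replicates 1, 2 and 3 and at 14.5, 16.9 and 15.8 TPM in knockdown replicates 1, 2 and 3. WT replicates 2 and 3 lay within the range of the knockdown libraries, and the log2 fold change was 0.16 (SE 0.251, adjusted p = 0.752) over 6 libraries and -0.08 (SE 0.0827, adjusted p = 0.503) without WT replicate 1. It shares 1039 of 10483 exon bases with the unclassified locus Gm45244 on the other strand. Acsl6 (chromosome 11, 54303798 to 54364756, plus strand), a synthetase of brain, had 18, 42 and 45 expected counts in WT and 26, 37 and 38 in knockdown replicates 1, 2 and 3. Its log2 fold change was -0.16 (SE 0.315, adjusted p = 0.809) over 6 libraries and -0.37 (SE 0.297, adjusted p = 0.371) without WT replicate 1. Acsf3 (chromosome 8, 122775486 to 122817880, plus strand), which encodes the mitochondrial malonyl-CoA synthetase, was at 2.01, 2.26 and 2.86 TPM in WT and 2.51, 3.05 and 2.89 TPM in knockdown replicates 1, 2 and 3. Its log2 fold change was -0.10 (SE 0.238, adjusted p = 0.847) over 6 libraries and 0.08 (SE 0.195, adjusted p = 0.782) without WT replicate 1.

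The genes whose log2 CPM followed that of Acsl5 most closely over the 6 libraries, out of 10719 genes averaging 5 CPM or more, were Casp12, Carnmt1, Pfkm, Myzap and Apobec3, with Pearson correlations of 0.998, 0.998, 0.998, 0.998 and 0.997. Over the 5 libraries without WT replicate 1 they were Sparc, Isoc1, Btg3, Chd9 and Pvr, each at 0.9996 or above, and none of the first 5 was among them. The libraries of a group share the treatment, so these values mostly reflect the difference between groups. Of the other members, Acsl3 had a correlation with Acsl5 of 0.874 over 6 libraries and 0.949 over 5, Acsl4 of 0.306 and 0.946, and Acsf2 of 0.264 and 0.968. The values were 0.062 and -0.909 for Slc27a1, -0.58 and -0.869 for Slc27a4, and -0.42 and 0.419 for Acsl1, so that the 2 SLC27 genes ran opposite to Acsl5 over the 5 libraries.

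The genes that supply, bind or use fatty acids and acyl-CoA were read from 6 further lists of 95 genes, of which 75 were tested over 6 libraries and 77 without WT replicate 1. Over 6 libraries edgeR called 0 of the 75, and 13 had an unadjusted p below 0.05, as did 16.0% of all genes. DESeq2 called 5 lower and 3 higher, where it called 7.68% of all genes, and limma-voom and limma-trend called 0. In the fit without that library, which gives the values below, 16 fell (20.8%) and 12 rose (15.6%), near the 18.0% and 16.3% of all genes. With the GC trend removed as well, 19 fell and 7 rose of the 77, where 16.0% of all genes fell and 15.6% rose.

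Among other acyl-CoA synthetases, 1 of 5 tested genes rose and 0 fell. The medium-chain synthetase gene Acsm3 rose by 0.38 (adjusted p = 0.00201) in counts, although its mean TPM was 33.4 in WT replicates 2 and 3 and 29.3 in knockdown libraries. The acetoacetyl-CoA synthetase gene Aacs was at 0.03 (adjusted p = 0.704) and the acetyl-CoA synthetase gene Acss2 at 0.17 (adjusted p = 0.103), or 0.23 (adjusted p = 0.0425) with the GC trend removed. In fatty acid uptake and binding, 3 of 8 fell and 0 rose. These were the sterol carrier gene Scp2 (-0.41, adjusted p = 8.29e-04), the lipoprotein receptor gene Vldlr (-0.32, adjusted p = 0.0018) and the caveolin gene Cav1 (-0.26, adjusted p = 0.00213). Cav1 was not called with the GC trend removed (-0.13, adjusted p = 0.0608), and its mean TPM was 97.1 in WT replicates 2 and 3 and 96.7 in knockdown libraries.

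In acyl-CoA binding and hydrolysis, 3 of 13 fell and 2 rose, with the thioesterase genes Them4 at -1.05 (adjusted p = 0.00108) and Acot9 at -0.62 (adjusted p = 1.52e-04). The most abundant genes of this list, Dbi, which encodes the acyl-CoA binding protein, and Acot7, were at -0.28 (adjusted p = 0.148) and 0.04 (adjusted p = 0.658). In acyl-CoA entry into mitochondria and peroxisomes, 3 of 11 fell and 2 rose. Crot, which moves medium-chain acyl groups from peroxisomes onto carnitine, fell by 0.47 (adjusted p = 1.04e-04). Acaca, which makes malonyl-CoA, fell by 0.36 (adjusted p = 2.7e-04). The peroxisomal transporter gene Abcd3 was at -0.10 (adjusted p = 0.119).

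Of 26 acyltransferase genes that use acyl-CoA, 7 fell and 1 rose, with a median of -0.11, and with the GC trend removed 10 fell and 0 rose. Lpcat3 and Mboat2, which put acyl chains into lysophospholipids, were at -0.43 (adjusted p = 2.2e-04) and -0.62 (adjusted p = 1.79e-04), and the ceramide synthase gene Cers2 was at -0.12 (adjusted p = 0.0431). Of 14 lipid-sensing transcription factors and coactivators, 6 rose and 0 fell, with a median of 0.22, and with the GC trend removed 3 rose and 1 fell. The liver X receptor gene Nr1h2 rose by 1.08 (adjusted p = 0.00239), and its level was 39.1 and 35.7 TPM in WT replicates 2 and 3 and 80.9, 71.3 and 72.5 TPM in knockdown replicates 1, 2 and 3. Srebf2, the regulator of cholesterol synthesis, rose by 0.40 (adjusted p = 4.7e-04) and by 0.19 with the GC trend removed. Srebf1, the regulator of fatty acid synthesis, rose by 0.29 (adjusted p = 0.00243) in counts, and was at 0.06 (adjusted p = 0.370) with the GC trend removed and lower in mean TPM (147.8 in WT replicates 2 and 3, 139.7 in knockdown libraries).

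**Figure D4:**
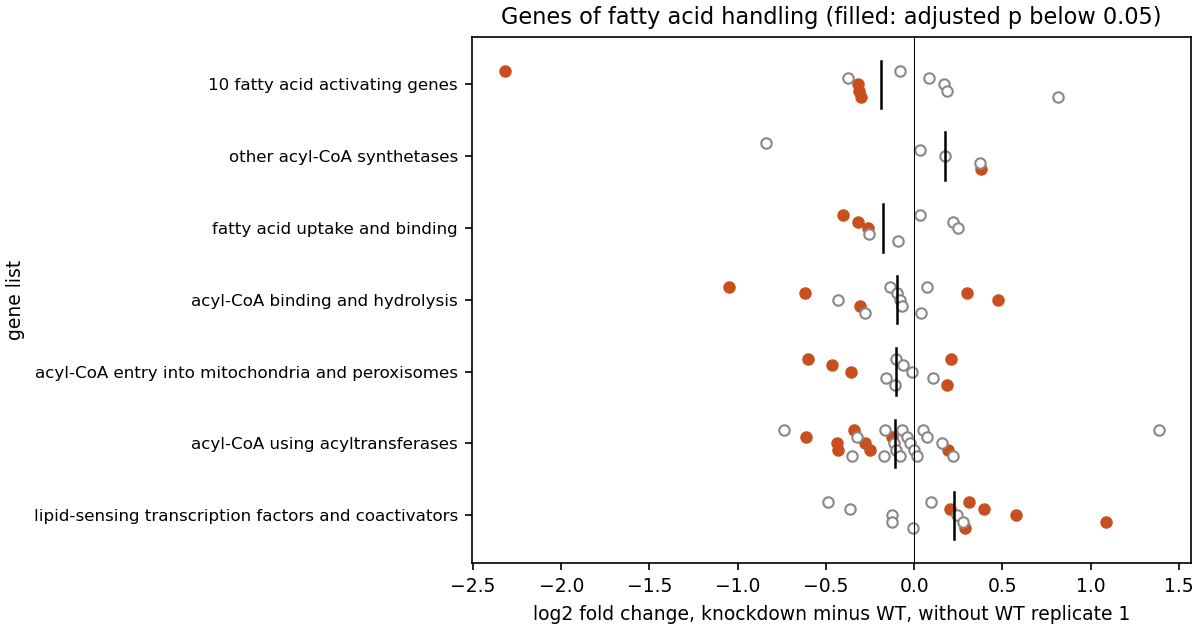
Each point is the log2 fold change (knockdown minus WT, without WT replicate 1) of 1 gene, by list, with filled points at an adjusted p below 0.05 and a black bar at the list's median. Acsl5, at -2.32, is the lowest point, and the medians of the lists lie between -0.19 and 0.22.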

How the data were processed

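Expression was measured by RNA sequencing in 3 WT and 3 ACSL5 knockdown libraries. Per the submitters' processing notes, the tools were fastp, HISAT2, StringTie and DESeq2 (no version or role is given) and the builds hg38 and GRCh38, which are human. Of the 57508 gene identifiers, 56980 carry the mouse prefix. The values used are expected counts, as deposited by the authors, of which 10.1% to 13.0% in a library are not exact whole numbers (over all 57508 genes, zeros included, with no tolerance), and TPM, as deposited by the authors. No quantifier or strand setting is named there. The 2 columns of group means in each table were not used.

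Counts were rounded, filtered with filterByExpr, scaled by TMM and compared in R 4.3.3 with edgeR 4.0.16 (two-sided quasi-likelihood F test, robust). Benjamini-Hochberg adjustment covered every gene tested, with calls below 0.05. DESeq2 1.42.0 and limma 3.58.1 (voom, and trend on log2 of TPM with a pseudocount of 1 or 0.1 for genes averaging 1 TPM or more in a group) were alternatives, as were other scalings and filters, a replicate block, removal of each library's lowess trend (span 0.3) with gene length or GC content, and leaving out libraries. TPM and CPM levels and shares were compared by exact permutation of the 6 libraries. The edgeR fit was tested on simulated counts, whose means and spread came from the libraries without WT replicate 1. Removal of the length trend was tested on counts with a made trend. The other fits were not tested in this way. The likeness of genes to Acsl5 used log2(CPM + 0.5). Positions are from GENCODE M21 on GRCm38, and promoter sequences from RefSeq on GRCm38.p6, where all 10 genes matched.

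The 10 genes and the other lists were chosen with earlier results of these data known. Of each other list, the 2 genes with the highest mean TPM and the 2 with the smallest p without WT replicate 1 are named, and the 5 genes most like Acsl5 over 6 and over 5 libraries.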

Additional observations from a re-analysis of the deposited data

How the results depend on the processing

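Leaving out WT replicate 1 was the alternative that decided most calls, and the cause of its difference was not tested. The log2 fold change of Acsl5 (-2.43, not called in edgeR) kept its sign in all 29 other settings and was called with library totals (-2.31), no filter (-2.40), DESeq2 (-2.45), limma-voom (-2.43), no robust estimation (-2.43) and the length trend removed (-2.60). Without WT replicate 1 it was called in every fit run, with the length trend removed (-2.28), with the GC trend removed (-2.26), in DESeq2 (-2.31), with library totals (-2.28), with limma-trend on TPM (-2.27) and with a replicate block (-2.25), and it ranged from -2.50 to -2.25 when 1 library, or WT replicate 1 and 1 other, was left out. The difference in its share of the family kept its sign in 8 alternatives, from -25.1 to -19.98 percentage points when 1 library was left out.

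Over 6 libraries the count of called genes was 0, and it became 1 with library totals, 4 with no filter, 1127 in DESeq2, 8 in limma-voom, 879 with the length trend removed and 5 without robust estimation, with 1 member (Acsl5) called in each. Without WT replicate 1 it was 5193 with 4 members, 5379 with 5 members (length trend removed), 4795 with 4 (GC trend removed), 4897 with 4 (DESeq2), 5220 with 6 (library totals), 2467 with 3 (limma-trend) and 5753 with 5 (replicate block). Leaving out 1 library, or WT replicate 1 and 1 other, gave 0 to 6188 genes and 0 to 5 members; a lone WT library is there assumed to vary like the knockdown libraries.

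With TPM values the median of all genes over 6 libraries moved to 0.26 with a pseudocount of 1, 0.30 with 0.1 and 0.063 with 1 and no filter, and signs reversed for Acsl3 (0.015 and 0.016, and 0.015 without a filter), Acsl4 (0.16, 0.17 and 0.16) and Acsf2 (0.23, 0.24 and 0.23). These values were below the median in the 2 filtered fits, and Acsl4 and Acsf2 were above it without the filter. For Acsf3 the reversed values were 0.18, 0.25 and 0.18 with TPM and 0.031 with library totals. Without WT replicate 1 they were 0.071 (length trend removed), 0.094 (DESeq2), 0.12 (library totals), 0.10 (limma-trend) and 0.17 (replicate block), and the range with libraries left out was -0.25 to 0.27. Acsl1 reversed only without WT replicate 1, to -0.055 (length), -0.068 (DESeq2), -0.046 (library totals), -0.042 (limma-trend) and -0.013 (replicate block), with a range of -0.13 to 0.33 over libraries left out. Slc27a1, at -0.01, reversed to 0.12 with library totals, 0.023 with no filter, 0.015 in limma-voom, 0.29, 0.31 and 0.29 with TPM and 0.013 with a replicate block. Without WT replicate 1 it was at 0.19 (length), 0.025 (GC), 0.20 (DESeq2), 0.22 (library totals), 0.24 (limma-trend) and 0.19 (replicate block), with a range of -0.14 to 0.24 over libraries left out. Slc27a3 ranged from 0.022 to 2.33 over libraries left out. Slc27a4 reversed to -0.018 with the length trend removed. Acsl6 ranged from -0.55 to 0.069 over libraries left out, and its share reversed to 0.076 percentage points with counts divided by gene length and ranged from -0.065 to 0.098.

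The deviations of same-numbered libraries from their group means had correlations of -0.115, 0.0201 and -0.142. These means include WT replicate 1, which stood apart, so the values cannot show whether replicate numbers pair the libraries. Without WT replicate 1, the SE of Acsl5 was 0.0638 with no block and 0.0469 with a replicate block. With the replicate block over 6 libraries Acsl5 was at -2.42 and 0 genes were called. Depth limits Slc27a3 and Acsl6, with 3.98 to 45 expected counts per library.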
